A study of Mus musculus with 8 samples.

Results

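Tight junction genes were followed in whole lungs of mice that had received a bone marrow transplant and were then kept under hypoxia for 3 days. The members are the 37 gene symbols, of 23284 in the table, that name claudins, occludin and its relatives, junctional adhesion molecules, zonula occludens scaffolds and cingulins, and 36 of them are described. In 4 lungs the C57BL/6 wild-type recipient carried triply n/i/eNOS-/- donor marrow, which lacks the neuronal, inducible and endothelial nitric oxide synthases (NOS-null marrow). In the other 4 lungs the same kind of recipient carried wild-type donor marrow (WT marrow). The series title sets the work within the role of myelocytic nitric oxide synthases in hypoxic pulmonary hypertension.

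Tight junctions seal the gap between neighbouring cells and set which ions and solutes leak through it. Claudins form the strands, occludin, tricellulin and MarvelD3 join them, junctional adhesion molecules bridge the membranes, and the zonula occludens and cingulin proteins tie the strands to actin from inside the cell. In the lung they close both the alveolar and airway epithelium and, with a different set of claudins, the endothelium of the vessels.

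Every recipient was wild type, so lung epithelium and vessel wall kept all NOS genes in both groups, and only cells derived from the donor marrow can lack them. The labels used here do not give the share of donor cells, the conditioning of the recipients or their age. Values are reads per gene divided by a size factor per library by the authors (called scaled reads), and they summed to 7767070 to 8625140 per library. Nos2, the inducible synthase gene, averaged 29.5 ± 14.8 scaled reads in NOS-null marrow lungs and 98.6 ± 13.2 in WT marrow lungs (SD, n = 4 each; limma adjusted p = 0.0221, up to 0.0744 with 1 library left out). Levels of different genes are compared as FPKM, the authors' values per kilobase of gene. NOS-null marrow replicate 1 stood apart in the neutrophil gene S100a8, at 39729 scaled reads, beside 1428 to 3246 in the other NOS-null marrow lungs and 441 to 1336 in WT marrow lungs, and several members are also given without that lung. All 8 reference genes looked at, among them Actb and Gapdh, were above 0 in every library.

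Lung tight junction RNA was dominated by an epithelial and an endothelial claudin. Cldn18, the main claudin of alveolar epithelium (chromosome 9, 99689461 to 99717267, GRCm38, minus strand), averaged 352 ± 69.3 FPKM in NOS-null marrow lungs and 415 ± 36.2 FPKM in WT marrow lungs. Cldn5, the main claudin of endothelium and also found in alveolar cells (chromosome 16, 18776847 to 18778262, plus strand), averaged 328 ± 24.4 FPKM in NOS-null marrow lungs and 358 ± 55.2 FPKM in WT marrow lungs. The ranges of these genes overlapped, and Cldn18 was the higher of the pair in 6 of 8 libraries.

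Next in level came Cldn3, a sealing claudin of alveolar and airway epithelium, at 99.7 ± 10.1 FPKM in NOS-null marrow lungs and 102 ± 12.8 in WT marrow lungs. F11r, which encodes the adhesion molecule JAM-A of epithelium, endothelium and platelets, followed at 79.1 ± 1.57 FPKM in NOS-null marrow lungs and 79.9 ± 6.28 in WT marrow lungs. Every library ranked Cldn5 above Cldn3 and Cldn3 above F11r. Tjp1 (the scaffold ZO-1), Cldn25, Cldn10 and Cldn7 lay together behind them with overlapping ranges, at 43.0, 40.8, 40.6 and 38.4 FPKM over the 8 libraries. The length behind the Cldn10 FPKM, judged against Cldn5, was 33.4% of its annotated exon bases. The place of Cldn10 in this order depends on that length. Cgnl1 (paracingulin), Ocln (occludin) and Jam2 (JAM-B) lay between 25.0 and 23.6 FPKM. The remaining 12 tested members described, from Jam3 at 9.34 FPKM to Cldn2 at 1.86 FPKM, stood apart from Jam2 with no overlap of ranges between Jam2 and Jam3.

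**Figure D1:**
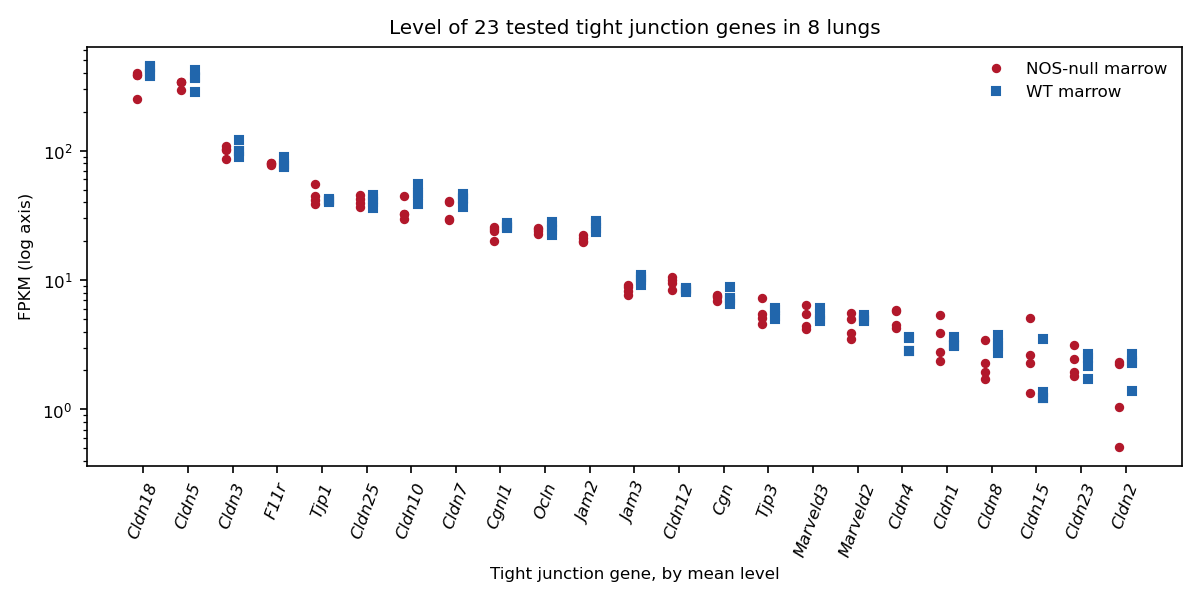
FPKM of 23 tested tight junction genes on a log axis, ordered by mean level, with each NOS-null marrow library as a circle and each WT marrow library as a square. Cldn18 and Cldn5 stand above every other gene in all 8 libraries, and Cldn2, Cldn15 and Cldn1 show wide spreads.

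Over the 23 claudin rows that still carry a claudin name, Cldn18 held 32.1 to 44.9% of the summed FPKM in NOS-null marrow lungs and 36.7 to 47.1% in WT marrow lungs. Cldn5 held 33.1 to 44.0% in NOS-null marrow lungs and 30.4 to 40.8% in WT marrow lungs. The pair together held 76.2 to 78.2% in NOS-null marrow lungs and 77.5 to 79.6% in WT marrow lungs. The ratio of Cldn18 to Cldn5 was 0.73, 1.36, 1.12 and 1.13 for replicates 1 to 4 of the NOS-null marrow group, against 1.23, 1.55, 1.07 and 0.90 in WT marrow replicates 1 to 4. The ratios of the groups overlapped, with the lowest and the second highest of the 8 both in the NOS-null marrow group.

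Of the 36 members described, 23 had at least 10 scaled reads in at least 4 libraries and were tested. None passed limma's test at a Benjamini-Hochberg adjusted p of 0.05 over all 14008 tested genes, where 4.05% of all tested genes passed, 1.87% higher and 2.18% lower in NOS-null marrow lungs. At an unadjusted p of 0.05, 4 of the 23 passed (17.4%), namely Jam2, Cldn4, Cldn10 and Jam3, against 26.6% of all tested genes. The 4 values of each group did not overlap for 2 of the 23 (8.70%), against 17.1% of all tested genes. Jam2 was lower throughout, as were 9.29% of all tested genes, and Cldn4 was higher throughout, as were 7.82%. Changes are given as the NOS-null marrow mean minus the WT marrow mean of log2(scaled reads + 1), a scale that understates the change of low genes. The median log2 change of the 23 was −0.05, and that of all tested genes was 0.00. In 12 of the 23 the 95% interval of the log2 change lay wholly between −0.5 and 0.5. In whole lung, fewer cells of a type and less RNA per cell cannot be told apart.

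**Figure D2:**
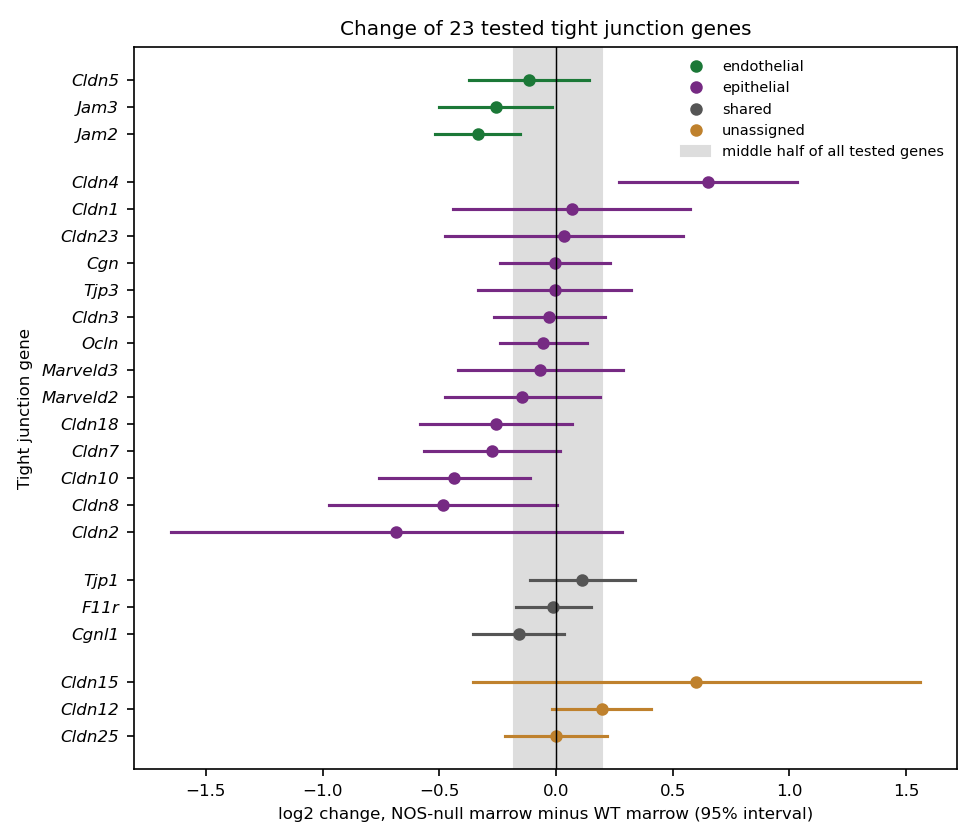
Log2 change of 23 tested tight junction genes, NOS-null marrow minus WT marrow, each as a point with its 95% interval, grouped as endothelial, epithelial, shared or unassigned. The grey band runs from the lower to the upper quartile of all tested genes (−0.18 to 0.20), and the intervals of Jam2, Jam3 and Cldn10 lie below 0 while that of Cldn4 lies above it.

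The members assigned to endothelium from general knowledge were Cldn5, Jam2 and Jam3. All 3 had a negative log2 change (median −0.26), where 49.9% of all tested genes were below 0. JAM-B and JAM-C, the products of Jam2 and Jam3, bind each other across endothelial junctions and also meet integrins of passing leukocytes. Jam2 (chromosome 16, 84774123 to 84825928, plus strand) stood at 863, 763, 779 and 817 scaled reads for replicates 1 to 4 of the NOS-null marrow group, against 1107, 1075, 982 and 910 in WT marrow replicates 1 to 4. Every NOS-null marrow lung was below every WT marrow lung. The means were 806 ± 44.6 for NOS-null marrow and 1019 ± 89.5 for WT marrow (SD, n = 4 each), a log2 change of −0.34 (SE 0.08, 95% interval −0.52 to −0.15, limma adjusted p = 0.0512). The difference passed when NOS-null marrow replicate 1 was left out (log2 change −0.37, adjusted p = 0.0451), and the adjusted p ran from 0.0321 to 0.145 over all settings tried.

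Jam3 (chromosome 9, 27097384 to 27155421, minus strand) stood at 122, 131, 136 and 113 scaled reads in NOS-null marrow lungs, against 157, 147, 163 and 135 in WT marrow lungs. Its groups overlapped by a single pair of lungs, since WT marrow replicate 4 lay just under NOS-null marrow replicate 3. The log2 change was −0.26 (SE 0.11, 95% interval −0.50 to −0.02, adjusted p = 0.168). An exon of Jam3 overlaps the predicted gene Gm48796 on the opposite strand, and no source used here states that reads were assigned by strand.

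Cldn5 stood at 3453, 2957, 3464 and 3438 scaled reads in NOS-null marrow lungs, against 3699, 2875, 3731 and 4225 in WT marrow lungs. The replicate numbered 2 was the lowest in each group, and the groups overlapped. Its log2 change was −0.12 (SE 0.12, 95% interval −0.37 to 0.14, adjusted p = 0.539), and it was −0.06 when the low NOS-null marrow lung was left out. Among WT marrow lungs, leaving out replicate 2 gave −0.22 and leaving out replicate 4 gave −0.04. Per library, the mean deviation of the 3 endothelial members from their means over the 8 lungs was −0.18 to −0.07 in NOS-null marrow lungs and 0.03 to 0.19 in WT marrow lungs. That mean includes Jam2, whose own groups did not overlap, while the groups of Cldn5 and of Jam3 each did. It therefore adds no separate evidence for the endothelial members as a class.

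Other endothelial genes did not share one direction. Of 15 endothelial markers tested, Vwf (von Willebrand factor, log2 change 0.88) and Ednrb (an endothelin receptor, 0.44) rose, where 1.87% of all tested genes did. Emcn (endomucin, −1.21) fell, where 2.18% of all tested genes did, and 12 did not pass. The median of the 15 was 0.01, and the groups did not overlap for 4 of the 15 (26.7%), against 17.1% of all tested genes. Emcn passed in all 8 fits that left out 1 library, Vwf in 4 and Ednrb in 1. The Vwf call was lost on leaving out NOS-null marrow 2 or WT marrow 1, 2 or 3 (highest adjusted p 0.0744), and that of Ednrb on leaving out any library other than NOS-null marrow 4 (highest adjusted p 0.134). Their summed level was 1696 to 2117 FPKM in NOS-null marrow lungs and 1656 to 1811 in WT marrow lungs, and none was at 0. Esam, an adhesion molecule of endothelial tight junctions outside the member rule, had 2161 ± 106 scaled reads in NOS-null marrow lungs against 2257 ± 238 in WT marrow lungs (log2 change −0.06, adjusted p = 0.686). Cdh5, VE-cadherin of endothelial adherens junctions, had 6545 ± 853 in NOS-null marrow lungs against 5906 ± 173 in WT marrow lungs (0.14, adjusted p = 0.368). The part of these markers in the Jam2 values was not tested.

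The epithelial members numbered 18, of which 14 were tested. Their median log2 change was −0.06, with 11 below 0 and 3 above it, against 49.9% of all tested genes below 0. Without NOS-null marrow replicates 1 and 2, Cgn (0.029), Cldn2 (0.11), Cldn3 (0.062), Marveld2 (0.099), Marveld3 (0.16) and Tjp3 (0.13) moved above 0. In that fit Cldn1 (−0.34) and Cldn23 (−0.25) moved below 0, and the other tested epithelial members kept their sign. The count by sign thus depended on those lungs. With all lungs, the log2 changes of the 14 ran from −0.68 to 0.65, and those of the 3 endothelial members from −0.34 to −0.12. The mean deviation of the 14 was −0.21 to 0.06 in NOS-null marrow lungs and −0.01 to 0.12 in WT marrow lungs, so the groups overlapped. Whether the endothelial and epithelial members differ from each other was not tested, since the classes hold 3 and 14 genes from the same lungs.

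Cldn4, a sealing claudin of alveolar and airway epithelium (chromosome 5, 134945119 to 134946934, minus strand), was the other member with separated groups. It stood at 76.9, 79.1, 60.1 and 57.6 scaled reads in NOS-null marrow lungs, against 37.8, 48.7, 48.3 and 37.8 in WT marrow lungs. All NOS-null marrow lungs were above all WT marrow lungs, with replicates 1 and 2 highest. The means were 68.5 ± 11.1 for NOS-null marrow and 43.1 ± 6.19 for WT marrow, a log2 change of 0.65 (SE 0.17, 95% interval 0.27 to 1.03, adjusted p = 0.0579). Without NOS-null marrow replicate 1 the log2 change was 0.59 (adjusted p = 0.102), and the adjusted p ran from 0.0507 to 0.296 over the settings tried.

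Cldn3 lies beside Cldn4, with 39.3 kb between them (chromosome 5, 134986214 to 134987472, plus strand), and its groups overlapped. It stood at 757, 901, 904 and 968 scaled reads in NOS-null marrow lungs, against 793, 880, 872 and 1061 in WT marrow lungs (log2 change −0.03, 95% interval −0.27 to 0.21, adjusted p = 0.886). An exon of Cldn3 overlaps Wbscr25 on the opposite strand. Cldn4 reached 0.0392 to 0.0669 of the Cldn3 FPKM in NOS-null marrow lungs and 0.0235 to 0.0364 in WT marrow lungs, so Cldn4 was the far lower gene of the pair in every lung.

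Cldn18 stood at 5484, 8740, 8403 and 8439 scaled reads in NOS-null marrow lungs, against 9931, 9710, 8664 and 8283 in WT marrow lungs. NOS-null marrow replicate 1 lay far below the other 7 lungs, and the remaining NOS-null marrow values lay inside the WT marrow range. Its log2 change was −0.26 (SE 0.15, 95% interval −0.58 to 0.07, adjusted p = 0.283), and −0.10 without that replicate. The summed level of 10 alveolar type 2 markers was also lowest in that lung, at 17308 FPKM against 22256 to 24566 in the other NOS-null marrow lungs and 22699 to 28003 in WT marrow lungs. The values are per gene and do not separate the lung and stomach first exons of Cldn18.

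Cldn10, an ion-pore claudin that marks club cells in mouse airways (chromosome 14, 118787908 to 118875489, plus strand), stood at 275, 200, 200.2 and 183 scaled reads in NOS-null marrow lungs, against 341, 241, 294 and 280 in WT marrow lungs. The groups overlapped only through NOS-null marrow replicate 1 and WT marrow replicate 2. Its log2 change was −0.43 (SE 0.15, 95% interval −0.76 to −0.11, adjusted p = 0.102), and it passed without NOS-null marrow replicate 1 (−0.56, adjusted p = 0.0373). None of 6 airway secretory markers passed, and their sum was 66226 to 88378 FPKM in NOS-null marrow lungs against 68574 to 91757 in WT marrow lungs. Their part in the Cldn10 values was not tested.

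Among the other claudins of epithelium, several were uneven within the NOS-null marrow group. Cldn7, found along the lateral membrane, stood at 270, 260, 362 and 373 scaled reads in NOS-null marrow lungs, against 340, 395, 391 and 386 in WT marrow lungs (log2 change −0.27, adjusted p = 0.211). Cldn8, a sealing claudin, stood at 34.9, 31.2, 41.4 and 62.0 in NOS-null marrow lungs, against 58.6, 68.4, 49.3 and 55.8 in WT marrow lungs (−0.48, adjusted p = 0.192). In both genes NOS-null marrow replicates 1 and 2 were below all WT marrow lungs while replicate 4 was not.

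Cldn2, which forms a pore for cations and water, stood at 12.3, 25.0, 54.2 and 55.5 scaled reads in NOS-null marrow lungs, against 54.6, 57.1, 64.1 and 33.1 in WT marrow lungs (log2 change −0.68, 95% interval −1.65 to 0.28, adjusted p = 0.33, and −0.26 without NOS-null marrow replicate 1). The low NOS-null marrow values were those of replicates 1 and 2. Cldn1, a barrier claudin of many epithelia, went the other way in those lungs, at 98.4, 136, 71.0 and 59.8 in NOS-null marrow lungs against 92.4, 78.7, 80.8 and 80.4 in WT marrow lungs (0.07, adjusted p = 0.871). Cldn23 stood at 23.6 to 43.7 scaled reads over all lungs (0.03, adjusted p = 0.94). Without NOS-null marrow replicates 1 and 2 the log2 change of Cldn2 was 0.11 and that of Cldn1 was −0.34, the opposite sign in each case.

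**Figure D3:**
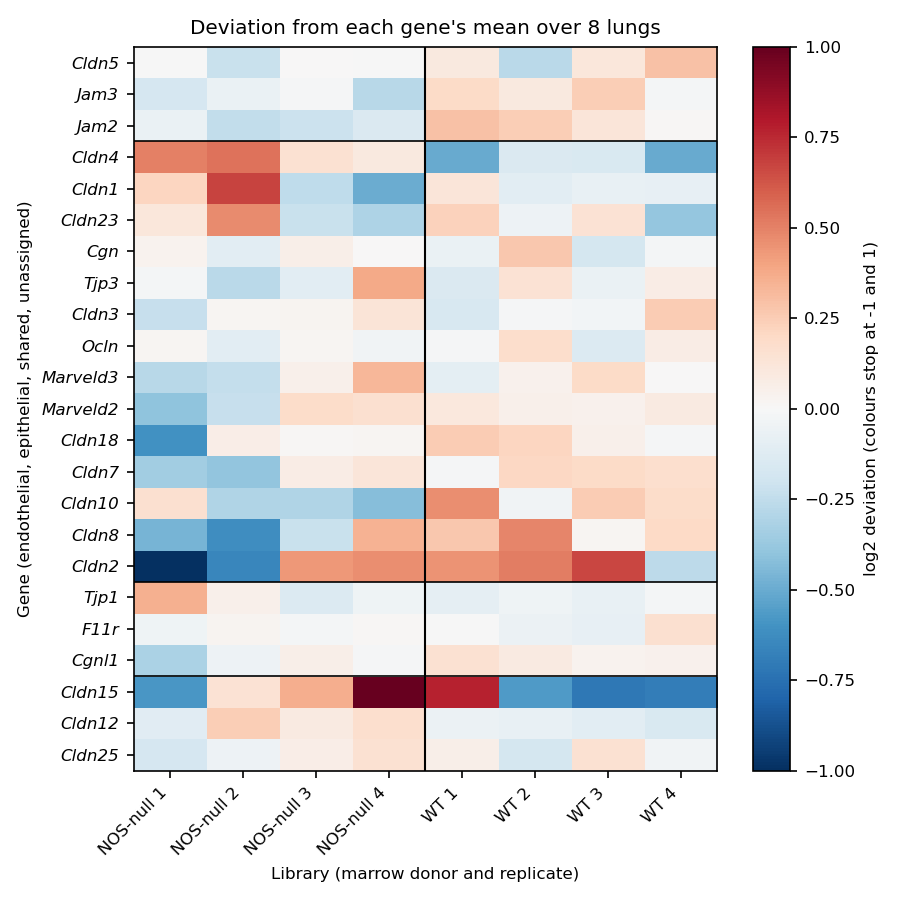
Log2 deviation of 23 tested members (rows, ordered by class) from their own means over the 8 lungs (columns, NOS-null marrow replicates left of the black line and WT marrow replicates right of it), red above and blue below. Cldn4, Cldn1 and Cldn23 are red and Cldn2, Cldn8, Cldn7, Marveld2 and Marveld3 blue in NOS-null marrow replicates 1 and 2, and Cldn15 is deepest red in NOS-null marrow replicate 4 and WT marrow replicate 1.

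The MARVEL proteins showed small differences. Ocln, occludin (chromosome 13, 100496507 to 100552718, minus strand), had 607 ± 25.5 scaled reads in NOS-null marrow lungs against 631 ± 57.7 in WT marrow lungs (log2 change −0.05, 95% interval −0.24 to 0.13, adjusted p = 0.704). Marveld2, tricellulin of the corners where cells meet, stood at 75.9, 85.4, 114 and 112 in NOS-null marrow lungs, against 108, 104, 103 and 107 in WT marrow lungs (−0.14, adjusted p = 0.556, and −0.04 without NOS-null marrow replicate 1). Marveld3 had 80.4 ± 16.5 in NOS-null marrow lungs against 83.2 ± 7.11 in WT marrow lungs (−0.07, adjusted p = 0.813). For tricellulin the NOS-null marrow lungs lay on both sides of a tight WT marrow group.

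The scaffold genes Tjp3 and Cgn, and the JAM-A gene, had log2 changes near 0. F11r had 1509 ± 30.0 scaled reads in NOS-null marrow lungs and 1525 ± 120 in WT marrow lungs (log2 change −0.01, 95% interval −0.17 to 0.15, adjusted p = 0.932). Tjp3, the epithelial ZO-3, had 132 ± 27.0 for NOS-null marrow and 131 ± 11.8 for WT marrow (−0.01, adjusted p = 0.984), and Cgn, cingulin, had 298 ± 14.4 for NOS-null marrow and 300.2 ± 41.7 for WT marrow (0.00, adjusted p = 0.983). Exons of Tjp3 overlap Apba3 on the opposite strand.

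Tjp1 (chromosome 7, 65296165 to 65527781, minus strand) stood at 3087, 2494, 2185 and 2338 scaled reads in NOS-null marrow lungs, against 2267, 2340, 2282 and 2373 in WT marrow lungs. The WT marrow lungs lay close together and NOS-null marrow replicate 1 was above all others (log2 change 0.11, 95% interval −0.11 to 0.34, adjusted p = 0.495), and without that lung the log2 change was 0.01. Cgnl1, a cingulin relative of both epithelium and endothelium, stood at 1096, 1320, 1422 and 1356 in NOS-null marrow lungs, against 1519, 1451, 1398 and 1409 in WT marrow lungs (−0.16, 95% interval −0.35 to 0.04, adjusted p = 0.268). NOS-null marrow replicate 1 was its lowest lung, and without it the log2 change was −0.08. Tjp1, Cgnl1 and F11r, described here as members of both cell types, had a median log2 change of −0.01, and all 3 intervals lay between −0.5 and 0.5.

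**Figure D4:**
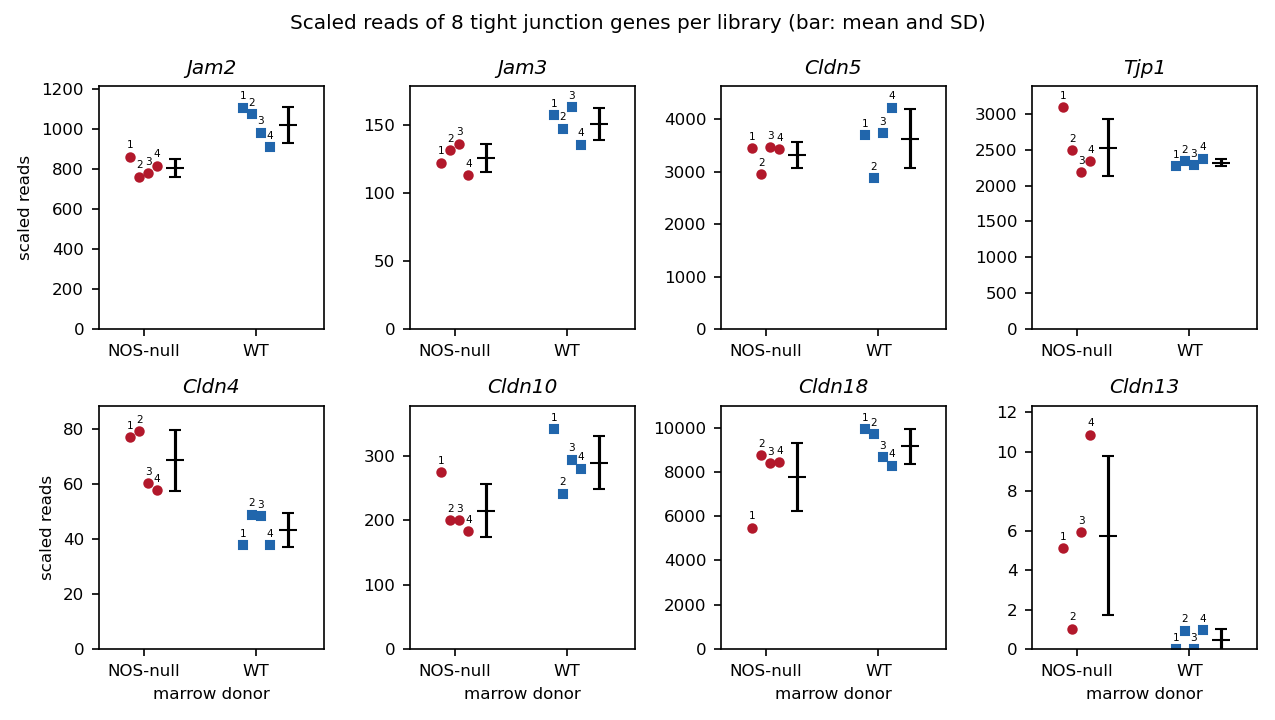
Scaled reads of Jam2, Jam3, Cldn5, Tjp1, Cldn4, Cldn10, Cldn18 and Cldn13 in each library, numbered by replicate, with the NOS-null marrow group left of the WT marrow group and bars for mean and SD. Jam2 lies lower and Cldn4 higher in all 4 NOS-null marrow lungs, and Cldn18 is lowest in NOS-null marrow replicate 1.

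The 12 claudin rows with no cell type assigned included 3 that were tested. Cldn12, an atypical claudin without the usual tail motif that binds scaffolds, stood at 244, 312, 281 and 296 scaled reads in NOS-null marrow lungs, against 253, 250.1, 244 and 237 in WT marrow lungs (log2 change 0.20, 95% interval −0.02 to 0.41, adjusted p = 0.217). Only NOS-null marrow replicate 1 lay inside the WT marrow range. Cldn15, a cation-pore claudin, stood at 18.5, 31.2, 36.5 and 69.6 in NOS-null marrow lungs, against 48.7, 18.7, 16.8 and 17.0 in WT marrow lungs (0.60, 95% interval −0.36 to 1.56, adjusted p = 0.384). Its high lungs were NOS-null marrow replicate 4 and WT marrow replicate 1, with a log2 change of 0.28 when NOS-null marrow replicate 4 was left out and 0.96 when WT marrow replicate 1 was. The mesothelial genes Upk3b (223 and 238 scaled reads) and Lrrn4 (126 and 103) were highest in those same lungs, where the other lungs held 28.6 to 127 and 12.3 to 62.5. Msln, the other mesothelial gene tested, did not follow that order, at 496, 839, 371 and 571 scaled reads in NOS-null marrow lungs and 483, 211, 141 and 166 in WT marrow lungs (log2 change 1.30, adjusted p = 0.0647). None of the 3 tested mesothelial markers passed, and their part in the Cldn15 values was not tested.

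Cldn25 is an older symbol shared by Cldnd1, a claudin domain gene on chromosome 16 (58727910 to 58734251), and Cldn25-ps, a pseudogene on chromosome 9. The ratio of scaled reads to FPKM, set against Cldn5, gave a length of 2228 bases for this row, where the annotated exons cover 2563 bases in Cldnd1 and 693 in Cldn25-ps. By that length the row is closer to Cldnd1. The same sum gave 1237 bases for Cldn3 and 1879 for Cldn4, whose annotated exons cover 1259 and 1816 bases. Over 21 tested members it came to between 33.4% (Cldn10) and 107% (Cldn8) of the annotated exon bases, with a median of 90.7%, and the Cldn25 row came to 86.9% of those of Cldnd1 and 322% of those of Cldn25-ps. The row averaged 652 ± 63.1 scaled reads in NOS-null marrow lungs and 651 ± 63.5 in WT marrow lungs (log2 change 0.00, adjusted p = 0.998). Cldn26 and Cldn27 are likewise older symbols, of Tmem114 and Tmem235.

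The other 13 members were under the limit for testing. Of these, Cldn9, Cldn14, Cldn16, Cldn17, Cldn20 and Cldn24 were listed at 0 in all 8 libraries, which, with the step between low values taken as 1 read, allows up to 3 reads, or 2.81 to 3.26 scaled reads depending on the library, for counting error alone. Cldn6, Cldn11, Cldn19, Cldn22, Cldn26 and Cldn27 did not exceed 5.96 scaled reads in any library.

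Cldn13, a rodent claudin known from red cell precursors of mouse marrow and spleen, stood at 5.13, 1.04, 5.92 and 10.9 scaled reads in NOS-null marrow lungs and at 0, 0.94, 0 and 0.95 in WT marrow lungs. NOS-null marrow replicate 2 lay close to the WT marrow lungs above 0, and the other NOS-null marrow lungs lay above them. With no filter on low values its adjusted p was 0.0668. It lies 29.6 kb from Cldn4 (chromosome 5, 134914249 to 134915526, minus strand). Erythroid genes were chosen after the Cldn13 values were seen. Of the 5 listed, 2 were tested and both rose, where 1.87% of all tested genes did. The groups did not overlap for 1 of the 2, against 17.1% of all tested genes. Alas2 of haem synthesis stood at 5650 ± 979 scaled reads in NOS-null marrow lungs against 2101 ± 183 in WT marrow lungs (log2 change 1.41, adjusted p = 0.000975). Alas2 passed in all 8 fits that left out 1 library, while Slc4a1 passed in 2 of the 8 (adjusted p up to 0.125). The 4 of the 5 listed genes that the table holds summed to 321 to 485 FPKM in NOS-null marrow lungs against 142 to 162 FPKM in WT marrow lungs, with Klf1 at 0 in WT marrow replicate 4, and their part in the Cldn13 values was not tested.

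Genes that work with tight junctions also stayed under the threshold. Of 64 listed genes of adherens junctions, polarity complexes, desmosomes, other tight junction proteins and their regulators, 58 were tested and none passed limma's adjusted p of 0.05, where 4.05% of all tested genes did. Their median log2 change was 0.04, and the groups did not overlap for 6 of the 58 (10.3%), a smaller share than the 17.1% of all tested genes. Those 6 were Ctnnb1, Pard3b, Pard6b, Pard6g, Pkp3 and Perp. All but Ctnnb1 fall outside the naming rule and were chosen after their values were seen.

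Ctnnb1, beta-catenin of adherens junctions, had 7081 ± 445 scaled reads in NOS-null marrow lungs and 9000 ± 702 in WT marrow lungs (log2 change −0.35, 95% interval −0.54 to −0.15, adjusted p = 0.0526). Perp, a desmosome protein and p53 target, had 362 ± 65.8 for NOS-null marrow against 257 ± 11.7 for WT marrow (0.48, adjusted p = 0.0545). The polarity gene Pard6b, of the complex that positions tight junctions, had 583 ± 152 for NOS-null marrow against 378 ± 36.8 for WT marrow (0.59, adjusted p = 0.0652), with 771 and 640 scaled reads in NOS-null marrow replicates 1 and 2. Mpp5 (Pals1), a polarity scaffold, had 1720 ± 459 for NOS-null marrow against 1213 ± 76.5 for WT marrow (0.47, adjusted p = 0.109), and Prkci, atypical protein kinase C, had 938 ± 88.1 for NOS-null marrow against 896 ± 43.8 for WT marrow (0.06, adjusted p = 0.66). Of the 14 polarity genes 11 were above 0, with a median of 0.06.

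Amotl2, an angiomotin relative, had 1476 ± 86.9 scaled reads in NOS-null marrow lungs against 1251 ± 111 in WT marrow lungs (log2 change 0.24, adjusted p = 0.104). Desmoplakin, Dsp, had 415 ± 25.0 for NOS-null marrow against 399 ± 52.5 for WT marrow (0.07, adjusted p = 0.705), and plakophilin 2, Pkp2, had 333 ± 53.0 for NOS-null marrow against 394 ± 33.7 for WT marrow (−0.25, adjusted p = 0.214). The repressors Zeb1 and Zeb2, which lower epithelial junction genes in other settings, had log2 changes of 0.11 and 0.11 (adjusted p = 0.48 and 0.471).

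Markers of the epithelium itself gave the following values beside the epithelial members. None of 9 general epithelial markers passed, and 8 were below 0 (median −0.17), against 49.9% of all tested genes. The groups did not overlap for 2 of the 9 (22.2%), against 17.1% of all tested genes. The sum of the 9 was 852 to 977 FPKM in NOS-null marrow lungs against 982 to 1207 in WT marrow lungs. Their mean deviation from their means over the 8 lungs overlapped, at −0.21 to 0.04 in NOS-null marrow lungs and 0.01 to 0.22 in WT marrow lungs. Epcam had 604 ± 8.52 scaled reads in NOS-null marrow lungs against 742 ± 105 in WT marrow lungs (log2 change −0.29, adjusted p = 0.101). Cdh1, a marker of higher mean in the same list, had 1440 ± 133 in NOS-null marrow lungs against 1614 ± 123 in WT marrow lungs (−0.17, adjusted p = 0.253). None of the 9 alveolar type 1, 10 alveolar type 2 or 6 tested ciliated markers passed (medians 0.07, −0.05 and 0.09), and the sums of type 1 markers were 4417 to 4697 FPKM in NOS-null marrow lungs against 4143 to 4525 in WT marrow lungs. Of 5 smooth muscle markers 4 fell, where 2.18% of all tested genes did (Acta2 and Tagln in all 8 fits that left out 1 library, Cnn1 and Des in 3 and 5). The 6 leukocyte markers, of which none passed, summed to 1017 to 25917 FPKM in NOS-null marrow lungs, the highest in replicate 1, against 364 to 963 FPKM in WT marrow lungs. These markers include S100a8, itself far highest in that replicate. Their mean deviation from their means over the 8 lungs overlapped, at −0.12 to 0.68 in NOS-null marrow lungs and −0.54 to 0.02 in WT marrow lungs. None of 6 fibroblast, 5 pulmonary vein cardiomyocyte or 4 platelet markers passed either. The part of these cell types in the members' values was not tested.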

How the data were processed

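Whole-lung RNA from 8 mice was compared, 4 from recipients of NOS-null marrow and 4 from recipients of WT marrow. Titles decided the groups, since the design text gives the same marrow for each. Per the submitters' processing notes, CASAVA 1.8.2, TopHat2 2.0.13, Bowtie2 2.2.3, SAMtools 0.1.19 and Cufflinks 2.2.1 were used with mm10. Annotation, settings and strand use were not given in the sources used. The deposited count-scale table holds signal values, read counts that the authors divided by a size factor per library. The authors' deposited FPKM table was used for levels between genes. From 98.6 to 98.8% of the values above 0 came within 0.05 of whole multiples of the step taken as 1 read (0.937 to 1.09), but 8 to 15 values per library were smaller than it, so reads were not taken as recovered and no count model was run. This departs from the planned count-model alternatives.

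Values plus 1 were log2-transformed, and limma 3.58.1 was run on the 14008 genes that reached 10 scaled reads in 4 or more libraries (trend, R 4.3.3), Benjamini-Hochberg adjusted over all of them at 0.05, with the procedure tested on simulated data. Intervals are 95%. The labels do not say how mice of a group relate, so p-values measure only the spread between these samples. No batch is labelled. Positions come from GENCODE M21 on GRCm38, the assembly of mm10. The members and lists were chosen with earlier results of these data known. Of the members, 1 is not reported here and was left out of the counts over members, although the fit covered all genes. The other members were eligible for naming, and from each other junction list the called genes or, with none, the 2 of highest mean. Cell types were assigned to members from general knowledge.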

Additional observations from a re-analysis of the deposited data

Results flagged for a closer look

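In each group of 4 lungs, the highest or lowest value was flagged where its gap to the nearest other value took up more of the group's range than Dixon's 95% limit allows. This was examined for 46 combinations of gene and group, of which 4 were flagged, and chance flags about 1 in 20. Cldn18 in NOS-null marrow replicate 1 was low, at 5484 scaled reads. Cldn5 in NOS-null marrow replicate 2 was low, at 2957 scaled reads. Cldn15 in WT marrow replicate 1 was high, at 48.7 scaled reads. Cldn1 in WT marrow replicate 1 was high, at 92.4 scaled reads.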

How the results depend on the processing

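No member described passed limma's test under the main settings, and none passed in the higher direction under any of 16 alternatives. In the lower direction 1 passed with a mean of at least 50 scaled reads required (Jam2, adjusted p = 0.0479) and 1 with rescaling to the upper quartile (Jam2, adjusted p = 0.0321), which moved the median of all genes to −0.05. Leaving out 1 replicate gave 0 to 2, the 2 (Jam2 and Cldn10) without NOS-null marrow replicate 1. No label says that replicate numbers pair mice, so the numbers were not taken as pairs. Same-numbered lungs deviated together with correlations of 0.04, 0.17, 0.00 and 0.15. For NOS-null marrow replicates 2 and 4, the WT marrow lung of highest correlation was the same-numbered one, and for replicates 1 and 3 it was not. With the replicate number as a block 0 members passed. Calls over all genes then fell to 81 higher and 54 lower, against 262 and 305 without it. Over all genes, leaving out 1 replicate gave 44 to 411 calls higher and 27 to 389 lower, and leaving out NOS-null marrow replicates 1 and 2 gave 97 and 84. Of 365 values of single genes, 332 kept direction and side of the threshold, 4 came to pass and 29, in 11 genes, changed sign without passing. With upper quartile rescaling the log2 change was −0.013 for Cldn23 and −0.046 for Cldn25. Without NOS-null marrow replicates 1 and 2 it was 0.029 for Cgn, −0.34 for Cldn1, 0.11 for Cldn2, −0.25 for Cldn23, 0.062 for Cldn3, 0.099 for Marveld2, 0.16 for Marveld3, −0.035 for Tjp1 and 0.13 for Tjp3. Leaving out 1 replicate, the log2 change ran from −0.064 to 0.085 for Cgn, −0.15 to 0.25 for Cldn1, −0.12 to 0.14 for Cldn23, −0.059 to 0.058 for Cldn25, −0.087 to 0.053 for Cldn3, −0.041 to 0.041 for F11r, −0.19 to 0.015 for Marveld3 and −0.13 to 0.083 for Tjp3. The cause was not tested. The edgeR and DESeq2 alternatives were not run because whole reads were not recovered. With 4 lungs a group, intervals of low genes such as Cldn2 and Cldn15 were wide, and differences inside them were not detectable.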
